A study of Mus musculus with 6 samples.

Results

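The interferon regulatory factor genes of mouse megakaryocytes were examined in leukaemic and healthy bone marrow. The 8 genes are Irf1, Irf2, Irf3, Irf4, Irf5, Irf7, Irf8 and Irf9, each taken as the array row that the platform's annotation pairs with that gene symbol alone, out of 30063 named genes. All 8 had such a row. Irf1 had 2, of which the row with the higher mean over the arrays was kept. The study sorted megakaryocytes, the polyploid marrow cells that release platelets, from female C57 mice whose acute myeloid leukaemia (AML) was induced with MLL-AF9, a fusion oncogene, and also from healthy control mice of the same strain and sex, using side scatter, CD41 and DNA content. Total RNA of each sort was measured on 1 Affymetrix array, with 3 AML and 3 control arrays. Arrays within a group are labelled as biological replicates without animal numbers. The p-values therefore reflect only how far these arrays spread, which may be technical. The ages of the mice, the way in which the leukaemia was induced, the share of leukaemic cells in the marrow and any pooling of animals are not given in the sources used here.

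Interferon regulatory factors are transcription factors that share a DNA-binding domain at the amino end, which recognises elements built from repeats of GAAA. IRF3 and IRF7 are switched on by sensors of viral nucleic acid and start the transcription of type I interferons, IRF5 drives inflammatory cytokine genes below Toll-like receptors, and IRF9 is the DNA-binding part of the complex ISGF3 that answers interferon. IRF1 is an activator induced by interferon gamma, and IRF2 competes for the same elements. IRF4 and IRF8 are largely restricted to blood and immune cells and bind together with partners such as PU.1: IRF4 in B cells, plasma cells and dendritic cells, IRF8 in monocytes and dendritic cells.

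In the AML sorts Irf2, Irf4, Irf5 and Irf8 fell, each by 1.58-fold or more, and no array of the AML group reached the control range for any of them. Irf1, Irf3, Irf7 and Irf9 did not pass the test. Irf3 and Irf9 differed between the groups by 0.05 and 0.002 on the log2 scale. Values below are log2 RMA expression values as deposited, ± is the SD over n = 3 arrays, differences are AML minus control, and adjusted p is from limma fitted over all 30063 genes with Benjamini-Hochberg adjustment and a threshold of 0.05. Of the 8 genes 4 passed, all lower in AML. Over all genes 6.25% passed as lower, 4.49% as higher and 10.7% in either direction. All 3 AML arrays lay below all 3 control arrays for 5 of the 8 genes, the called genes and Irf7, against 13.1% of all genes. The median difference of the 8 genes was -0.51, against +0.11 over all genes.

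The groups differ in overall level. Array medians over genes ran from 5.29 to 5.32 in AML and from 5.16 to 5.24 in control, and over all genes 1350 rose and 1880 fell in AML, a split that became 505 and 2712 after each array was centred on its median. Across genes, which are not independent, arrays correlated at 0.982 to 0.994 within AML and at 0.990 to 0.995 within control, with AML array 3 at the low end. The lowest level that counts as above background is taken here as 5.51, the 95th percentile of the mean levels of 1718 genes for olfactory or vomeronasal receptors, which are rarely transcribed outside sensory tissue. Of the megakaryocyte markers that check the sort label, Pf4, platelet factor 4, stood at 11.98 ± 0.22 in AML and 12.09 ± 0.12 in control (adjusted p = 0.546), and Ppbp, pro-platelet basic protein, at 12.23 ± 0.16 in AML and 12.37 ± 0.17 in control (adjusted p = 0.424). Of 10 measured megakaryocyte markers 0 passed by limma's adjusted p and 0 had an unadjusted p under 0.05, and their summed linear level ran from 12450 to 17790 in AML and from 13030 to 16750 in control. Markers of other marrow cells were also above background in the same sorts. Neutrophil markers, 12 genes, had summed levels from 10900 to 12490 in AML and from 24660 to 29270 in control, and none was at or below the background level. Sums of different probes show presence and not shares of cells. In bulk RNA such as this, fewer cells of a type and less RNA per cell cannot be told apart.

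**Figure D1:**
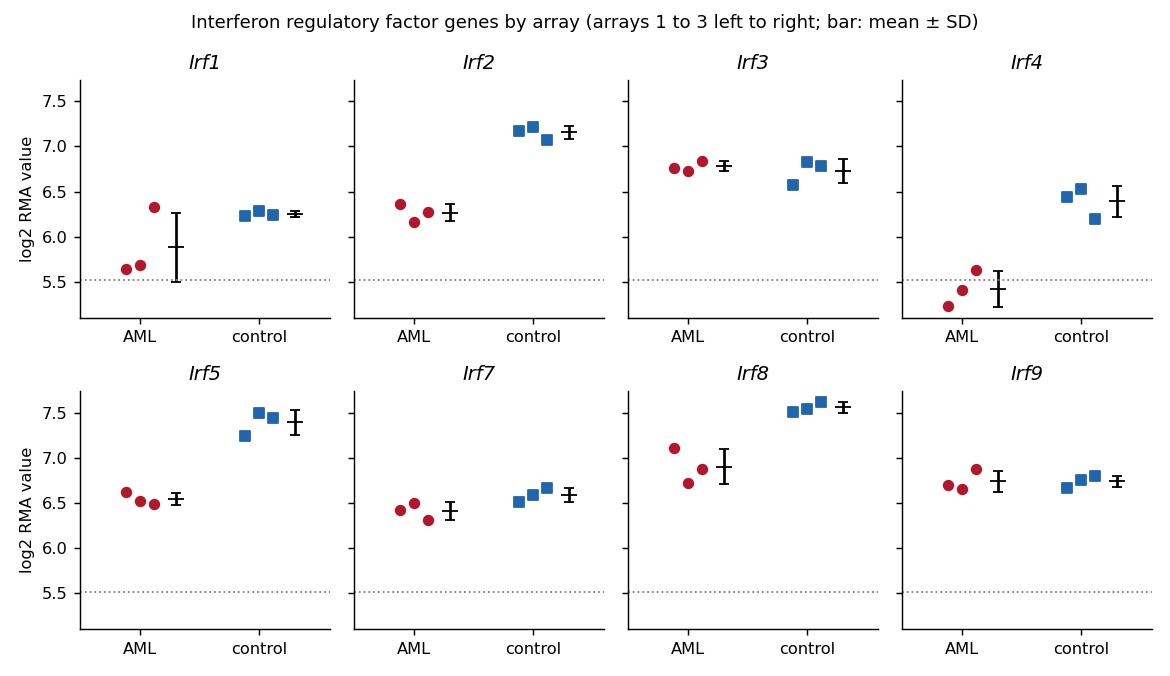
Log2 RMA value (y axis) of each interferon regulatory factor gene on the 3 AML arrays (red circles, left) and the 3 control arrays (blue squares, right), with the mean and SD of each group beside the points and the level of 5.51 as a dotted line. The groups are apart for Irf2, Irf4, Irf5 and Irf8, AML array 3 of Irf1 stands with the controls at 6.33, and the points of Irf3 and Irf9 overlap.

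Irf2, the repressor that shares its binding element with IRF1, had the smallest p of the family. In human cell lines IRF2 has also been linked to megakaryocytic differentiation. Its values were 6.36, 6.17 and 6.27 on the AML arrays, against 7.17, 7.22 and 7.08 on the control arrays. The arrays of a group lay close together and the groups were well apart. Irf2 fell by 0.89 (SE 0.08, 95% CI -1.08 to -0.70), or 1.85-fold (adjusted p = 0.00167). The call held without any single array, with adjusted p from 0.00349 to 0.0144.

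Irf1, the activator, varied more within AML than any other gene of the family. Its values were 5.64, 5.68 and 6.33 on the AML arrays and 6.22, 6.29 and 6.24 on the control arrays. AML arrays 1 and 2 were low, and AML array 3 stood above all the controls. At -0.37 (SE 0.18, 95% CI -0.79 to 0.06) the difference missed the threshold (adjusted p = 0.196). When AML 3 was left out Irf1 was lower by 0.59 and passed (adjusted p = 0.00528). The other row with this symbol had a mean of 4.48, below the background level, and a difference of -0.01.

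The promoter windows of Irf1, Irf2 and Irf8 are shown because they hold elements that the interferon pathway uses. They are RefSeq sequences of GRCm38.p6, from 250 bases before to 50 after an annotated start, 5′ to 3′ on the gene's strand, which is the plus strand for all 3. Both strands were searched for 4 motifs. The IRF element, bound by IRFs and ISGF3, is GAAA, any 2 bases and GAAA, and the composite element of an ETS factor and an IRF is GGAA, any 2 bases and GAAA. The STAT element of interferon gamma signalling is TTCNNNGAA, and the only kappa B form searched is GGGA, any 2 bases and TTCC. In this order the 4 motifs occur in 3.44%, 2.72%, 8.30% and 1.47% of 32851 promoter windows. Capitals mark every match of these 4 motifs. Other forms of the kappa B element were not searched and stay in lower case where present.
Irf2, chr8:46739495-46739794: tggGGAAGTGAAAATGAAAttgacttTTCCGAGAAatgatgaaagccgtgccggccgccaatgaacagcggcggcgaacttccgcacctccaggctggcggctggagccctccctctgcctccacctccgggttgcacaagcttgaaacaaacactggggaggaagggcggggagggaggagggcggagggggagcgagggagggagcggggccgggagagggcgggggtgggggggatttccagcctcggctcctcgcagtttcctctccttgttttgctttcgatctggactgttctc
Irf8, chr8:120736108-120736407: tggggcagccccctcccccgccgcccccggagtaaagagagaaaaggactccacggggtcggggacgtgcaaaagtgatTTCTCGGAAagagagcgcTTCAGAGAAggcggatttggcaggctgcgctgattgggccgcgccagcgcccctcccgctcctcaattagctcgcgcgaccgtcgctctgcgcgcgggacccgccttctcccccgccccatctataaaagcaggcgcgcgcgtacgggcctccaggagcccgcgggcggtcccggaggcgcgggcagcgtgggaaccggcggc
Irf1, chr11:53769764-53770063: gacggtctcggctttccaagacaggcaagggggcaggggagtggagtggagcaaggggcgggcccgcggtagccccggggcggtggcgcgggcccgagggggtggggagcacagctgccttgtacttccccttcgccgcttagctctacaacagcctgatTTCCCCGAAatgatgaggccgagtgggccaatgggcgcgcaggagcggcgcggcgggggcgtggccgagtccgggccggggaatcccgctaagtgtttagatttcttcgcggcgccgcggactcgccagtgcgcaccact
In Irf2 a composite element starts 247 bases before the start site and runs into an IRF element that starts at 241, so that the capitals of the overlapping pair read as a single run, and a STAT element starts at 224. Irf8 holds 2 STAT elements, starting 171 and 153 bases before the start, and Irf1 holds 1, starting at 90. None of these 4 motifs matched in the windows of Irf3, Irf4, Irf5, Irf7 and Irf9 or in the other windows of Irf1 and Irf8. A match describes the letters only and does not show that a factor binds there.

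Irf5, which carries the signal of Toll-like receptors to cytokine genes, fell by an amount close to that of Irf2. It had 6.62, 6.52 and 6.48 on the AML arrays, against 7.24, 7.50 and 7.45 on the control arrays. The highest AML array stayed below the lowest control array. Irf5 fell by 0.85 (SE 0.09, 95% CI -1.07 to -0.64), or 1.81-fold (adjusted p = 0.00273), and the adjusted p ran from 0.00479 to 0.0201 with each array left out.

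Irf3 and Irf7, the factors that start interferon transcription, did not pass. Irf3, which is present in most cells before infection, had 6.76, 6.73 and 6.84 on the AML arrays and 6.57, 6.83 and 6.78 on the control arrays. The groups overlapped, and the difference of +0.05 (95% CI -0.16 to 0.26, adjusted p = 0.702) became -0.07 after median centring. Irf7, which interferon itself induces, had 6.42, 6.50 and 6.31 on the AML arrays and 6.51, 6.59 and 6.67 on the control arrays. The AML arrays were all the lower ones, by a narrow margin, and the difference of -0.18 (SE 0.08, 95% CI -0.38 to 0.02) did not pass (adjusted p = 0.182). The lower bounds of both intervals are smaller in size than the fall of any called gene of the family.

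Irf9, the DNA-binding subunit of ISGF3, had the difference nearest to 0. Its values were 6.69, 6.65 and 6.87 on the AML arrays and 6.67, 6.75 and 6.79 on the control arrays. AML array 3 was the highest of the 6 and AML array 2 the lowest. The difference was 0.002 (SE 0.09, 95% CI -0.20 to 0.20, adjusted p = 0.986) and -0.12 after median centring.

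Irf4, the factor of activated lymphocytes and plasma cells, had the largest measured difference of the family, but its level in AML was near the background. Its values were 5.23, 5.41 and 5.63 on the AML arrays, against 6.44, 6.53 and 6.20 on the control arrays. The AML mean of 5.42 ± 0.20 was not shown to be above background, while the control mean was 6.39 ± 0.17. Irf4 fell by 0.97 (SE 0.13, 95% CI -1.28 to -0.66, adjusted p = 0.00662), which with the background level as floor is at least 1.79-fold. With that floor the order of Irf4, Irf2 and Irf5 by size of fall is not settled. The adjusted p ran from 0.00457 to 0.0367 with each array left out.
Some markers of the cells that use IRF4 were lower in the same sorts. Of 9 B cell markers 5 fell, with a summed linear level from 453 to 594 in AML and from 1521 to 2126 in control, and 3 of the 9 had means at or below the background level. In control, though not in AML, most of that sum is Ighm, the IgM heavy chain. Without Ighm the sums ran from 328 to 344 in AML and from 418 to 448 in control. Of 6 plasma cell markers 2 fell, Jchain and Slamf7, with sums from 203 to 270 in AML and from 534 to 572 in control, and 3 of the 6 were at or below the background level. Without those 2 genes the sums ran from 142 to 157 in AML and from 154 to 161 in control, and overlapped. The part of these cells in the result of Irf4 was not tested.

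Irf8, which directs progenitors to monocytes and dendritic cells, was lower by less. Its values were 7.11, 6.72 and 6.87 on the AML arrays, against 7.51, 7.54 and 7.62 on the control arrays. All AML arrays were below the controls, and they spread more widely, with array 1 nearest to the controls. Irf8 fell by 0.66 (SE 0.11, 95% CI -0.92 to -0.40), or 1.58-fold (adjusted p = 0.0139). The call was lost without control array 2 (adjusted p = 0.0634, difference -0.67) and without control array 3 (adjusted p = 0.0659, difference -0.63).
Beside Irf5 and Irf8, monocyte and macrophage markers were lower in 8 of 11, among them Lyz2, lysozyme, which fell 2.83-fold. Their summed levels ran from 6484 to 8653 in AML and from 9510 to 10530 in control, and none of the 11 was at or below the background level. In AML, though not in control, most of that sum is Ly6c2, which did not pass (difference +0.32, adjusted p = 0.187). Cd68 and Vcam1 did not pass either (differences -0.79 and -0.69). Of 8 conventional dendritic cell markers 4 fell, with sums from 956 to 1129 in AML and from 4477 to 4754 in control, and 3 of the 8 were at or below the background level. The MHC class II genes H2-Ab1 and H2-Eb1, which B cells and macrophages also express, carry most of this sum, and without them it ran from 338 to 409 in AML and from 572 to 637 in control. The other genes of this list that fell were Cd209a, at least 4.65-fold (adjusted p = 0.000281), and Itgax, by 1.12 (adjusted p = 0.00175). Flt3, Zbtb46 and Xcr1 did not pass, at levels not shown to be above background in either group. Clec9a, which was above background, did not pass either, at 7.59 ± 0.31 in AML and 7.00 ± 0.67 in control (adjusted p = 0.240). Of 7 plasmacytoid dendritic cell markers 3 fell, Siglech, Ly6d and Lair1, and 1 of the 7 was at or below the background level. The sums ran from 330 to 356 in AML and from 485 to 491 in control. Ccr9, Klk1, Cox6a2 and Pacsin1 did not pass (differences -0.05, -0.03, -0.06 and +0.11), and Ccr9 was not shown to be above background in either group. The part of these cells in the results of Irf5 and Irf8 was not tested.

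**Figure D2:**
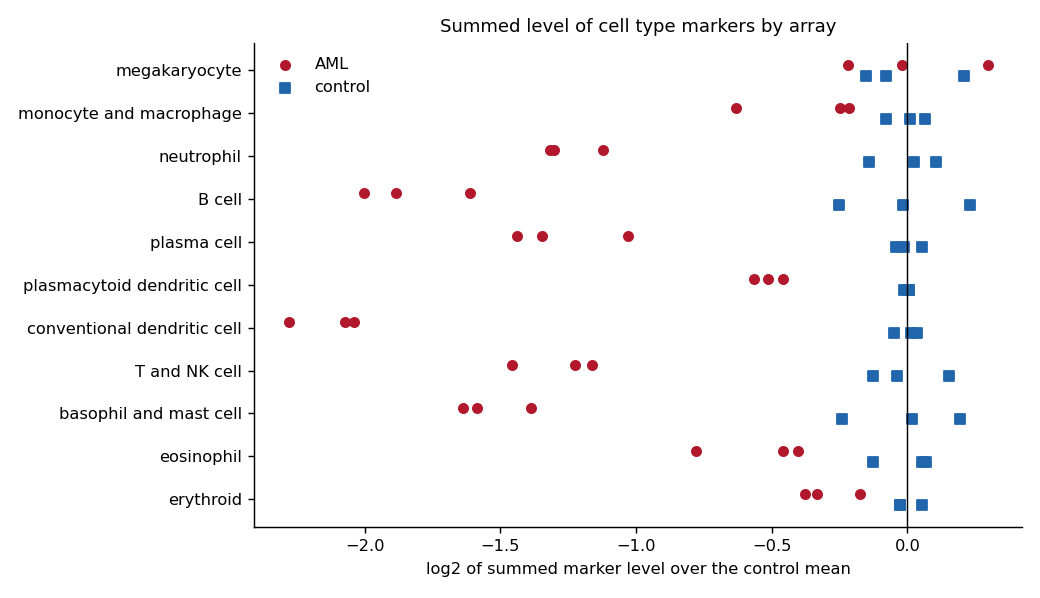
Log2 of the summed linear level of each list of cell type markers (rows) over the control mean, for the 3 AML arrays (red circles) and the 3 control arrays (blue squares). The megakaryocyte points of the groups overlap, and the AML points of the other lists lie left of the control points. Of the 10 T and NK cell markers only Gzmb passed as lower, and the median difference of that list was +0.10.

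**Figure D3:**
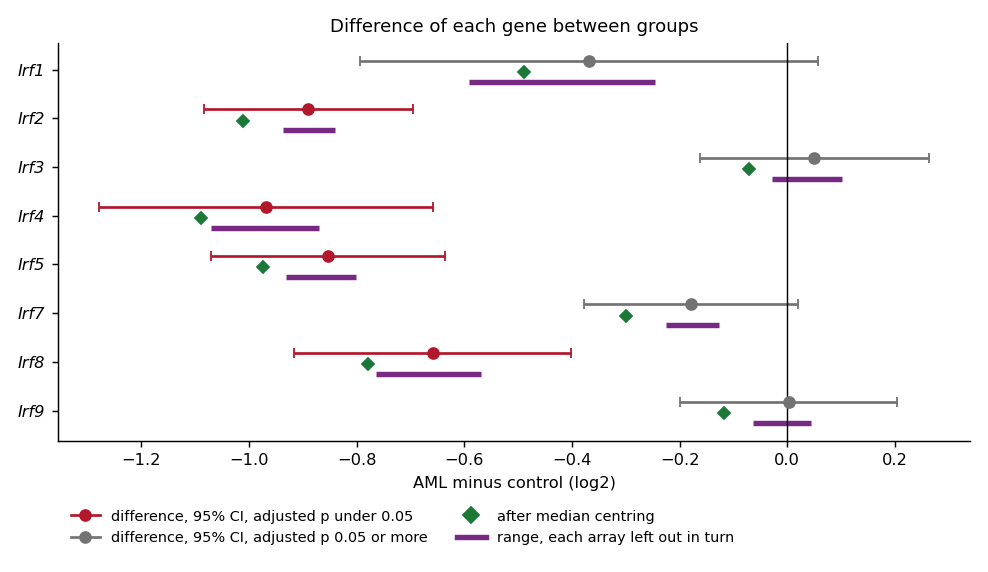
Difference AML minus control on the log2 scale (x axis) for each gene, with the 95% confidence interval (circles, red where the adjusted p was under 0.05), the value after median centring of the arrays (green diamonds) and the range with each array left out in turn (purple bars). The intervals of Irf2, Irf4, Irf5 and Irf8 lie below 0, the diamonds sit further left than the circles, and the bar of Irf1 spans -0.59 to -0.25.

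Within the family, the patterns over the 6 arrays were compared by the Euclidean distance between values centred on each gene's mean. The nearest pair was Irf3 and Irf9, at 0.16, followed by Irf2 and Irf5, at 0.25, and the farthest was Irf3 and Irf4, at 1.31. By the same measure the most similar of 15024 other genes at or above the median level were found for each called gene, as a description over 6 arrays. Nearest to Irf2 were Ebf1, a B cell transcription factor, at 0.12, Ccnl1 at 0.15 and Slamf8, a receptor of myeloid cells, at 0.15. Nearest to Irf5 were the tetraspanin gene Cd82 at 0.09, Ly6d at 0.09 and Nfkb2, a subunit of NF-kappaB, at 0.10. Nearest to Irf8 were the cholesterol exporter gene Abcg1 at 0.06, the repressor gene Bach1 at 0.09 and Iqgap2 at 0.12. Irf4 had more distant neighbours, Rubcnl at 0.23, Zfp36, which encodes a protein that destabilises cytokine mRNA, at 0.25 and the kinase gene Map3k8 at 0.26. The AML mean of Rubcnl, 5.37 ± 0.09, was likewise not shown to be above background. The same holds for the AML mean of Ebf1, the nearest gene to Irf2.

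Around the factors, genes were grouped in 11 lists by role, with 141 measured genes, of which 50 fell and 5 rose. The background shares are again 6.25% and 4.49%, and the median difference over the 141 was -0.17. Leaving out control 2 gave 31 falls, leaving out control 3 gave 30 and leaving out AML 2 gave 39, each with 0 rises by limma's adjusted p. The split was 1 rise and 55 falls after median centring, 3 and 50 after quantile normalization and 2 and 52 after cyclic loess.

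**Figure D4:**
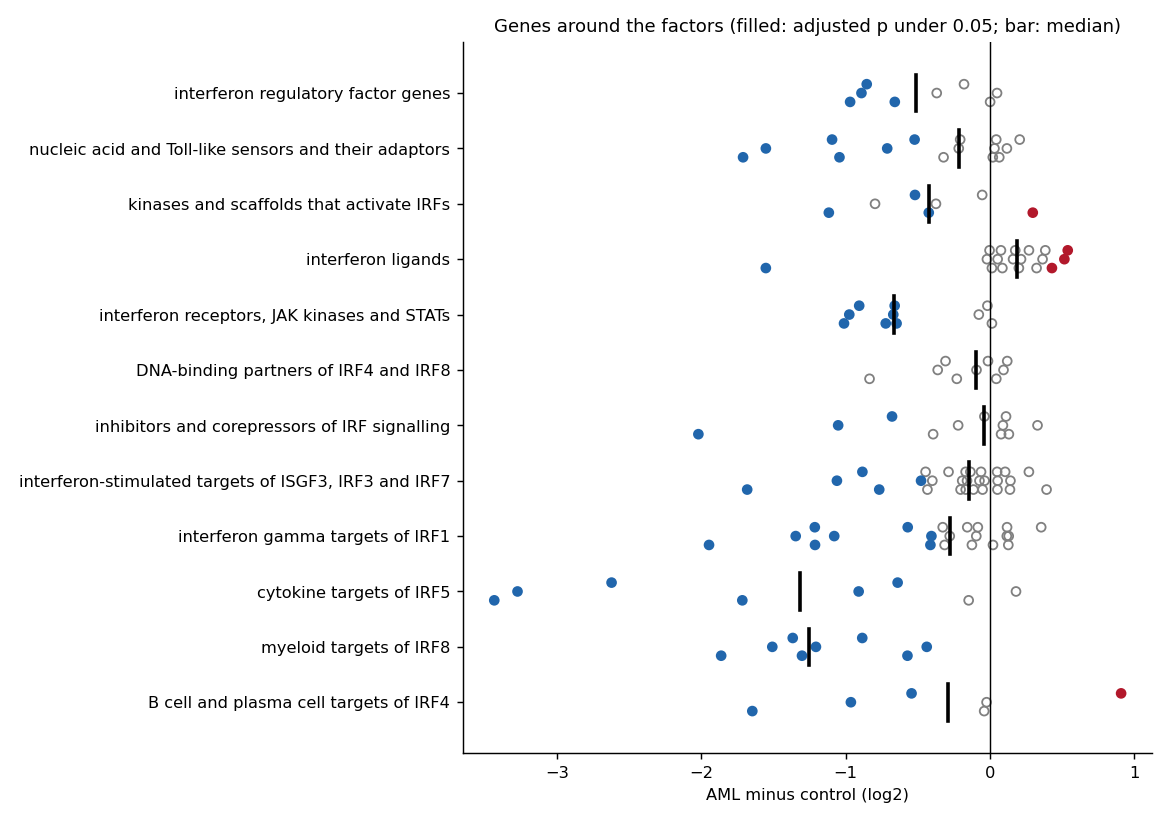
Difference AML minus control on the log2 scale (x axis) of every measured gene of the family and of each list (rows), filled blue where lower and filled red where higher at an adjusted p under 0.05, open otherwise, with the median as a bar. All points of the myeloid targets of IRF8 are filled and below 0, and most points of the interferon-stimulated targets are open.

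Among the genes upstream of the factors, of 15 sensors and adaptors 6 fell and 0 rose (median -0.22), and the falls numbered 3 when control 3 was left out. Ifih1, the cytosolic RNA sensor MDA5, fell by 1.09 to 5.84 ± 0.08 in AML, against 6.93 ± 0.02 in control (adjusted p = 0.000551). Tlr7, an endosomal receptor of RNA that signals to IRF5 and IRF7, fell by 1.71 (adjusted p = 0.0113, or 0.0561 without control array 3). Its relative Tlr8 fell at least 1.54-fold (adjusted p = 0.00278). Tlr9, an endosomal receptor of DNA, fell by 1.04 (adjusted p = 0.0124, or 0.0595 without control array 3). Sting1, the adaptor of cytosolic DNA sensing, fell by 0.71 (adjusted p = 0.00364), and Ticam2, an adaptor of TLR4, passed as lower (difference -0.52, adjusted p = 0.0423) at levels not shown to be above background. The other cytosolic sensors of the list, Ddx58, Dhx58, Cgas and Zbp1, did not pass (adjusted p 0.270 or more), and Cgas was not shown to be above background in either group.

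Of 7 kinases and scaffolds that activate IRFs 3 fell and 1 rose, with a median of -0.42. Tank, a scaffold of the kinase TBK1, fell by 1.12 (adjusted p = 0.00477), to 6.57 ± 0.28 in AML against 7.69 ± 0.03 in control. Another TBK1 adaptor, Azi2, fell by 0.52 (adjusted p = 0.0172) and Tbk1 itself by 0.42 (adjusted p = 0.0381). Tbkbp1, a further adaptor of the kinase, rose by 0.30 (adjusted p = 0.0492), a call that median centring (adjusted p = 0.158) and cyclic loess (0.0573) each ended. With AML 1 left out 2 of the list fell, and 1 fell when AML 2, control 2 or control 3 was. With any 1 array left out the differences ran from -0.51 to -0.37 for Tbk1, -0.57 to -0.44 for Azi2 and 0.26 to 0.34 for Tbkbp1, but the calls did not all hold with fewer arrays. The call of Tbkbp1 was lost without any 1 of the 6 (adjusted p 0.0561 to 0.167), that of Tbk1 without any array but control array 1 (0.0620 to 0.147), and that of Azi2 when AML 2, control 2 or control 3 was left out (0.0501 to 0.0768).

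Of 18 interferon genes 14 had means over the arrays at or below the background level. The 4 above it were Ifna1, Ifna4 and the lambda genes Ifnl2, at 6.38 ± 0.12 in AML and 6.30 ± 0.08 in control (adjusted p = 0.496), and Ifnl3, at 6.47 ± 0.09 in AML and 6.30 ± 0.09 in control (adjusted p = 0.217). Ifnb1, the interferon beta gene that IRF3 and IRF7 induce, fell at least 1.19-fold, with 4.21 ± 0.38 in AML against 5.76 ± 0.09 in control (adjusted p = 0.00384). Of the interferon alpha genes, Ifna5 rose at least 1.17-fold (adjusted p = 0.0262). Ifna7 (difference +0.54, adjusted p = 0.0410) and Ifnab (difference +0.43, adjusted p = 0.0483) passed upward at levels not shown to be above background in either group. Rises in this list numbered 0 by limma's adjusted p when AML 2, control 2 or control 3 was left out. The calls of Ifna7 and Ifnab ended under median centring (adjusted p = 0.0768 and 0.0985), quantile normalization (0.0773 and 0.106) and cyclic loess (0.0810 and 0.0807). Ifna5 and Ifna7 lost theirs when AML 2, control 2 or control 3 was left out (0.0796 to 0.111 for Ifna5), and Ifna7 also without control array 1 (0.0629 to 0.146), while Ifnab lost its call without any 1 array (0.0527 to 0.156). The interferon alpha genes are close paralogs, so signal shared between their probes leaves each value uncertain.

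Of 10 genes for the receptors, kinases and STATs that carry the interferon signal 7 fell and 0 rose, with a median of -0.66. The lambda receptor chain Ifnlr1 (difference +0.01, adjusted p = 0.903) and the kinase gene Tyk2 (difference -0.08, adjusted p = 0.540) did not pass. Ifnlr1 was not shown to be above background in either group. Both chains of the type I receptor fell, Ifnar1 by 0.67 (adjusted p = 0.00753) and Ifnar2 by 0.72 (adjusted p = 0.0112), as did Ifngr2, the signalling chain of the interferon gamma receptor, by 0.97 (adjusted p = 0.00981) and Jak1, the kinase that both receptors use, by 0.66 (adjusted p = 0.00545). Stat2, the partner of IRF9 in ISGF3, stood at 6.62 ± 0.16 in AML and 6.64 ± 0.09 in control (adjusted p = 0.917), a gene chosen after its values were seen. The falls numbered 4 when AML 2 was left out and 3 when control 2 or control 3 was, and Ifnar2 was among those lost without either control array (adjusted p 0.0561 to 0.0570).

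None of the 9 measured partners of IRF4 and IRF8 passed limma's adjusted p. The nearest were the AP-1 subunits Jun, at 7.11 ± 0.52 in AML and 7.95 ± 0.11 in control (adjusted p = 0.0681, unadjusted p = 0.0102), and Jund, at 5.91 ± 0.07 in AML and 6.14 ± 0.04 in control (adjusted p = 0.0849, unadjusted p = 0.0156). Jund passed as lower after median centring (0.0249) and after cyclic loess (0.0395), as did both genes with array weights (Jun 0.00587, Jund 0.0478). Jun also passed when AML 3 was left out (difference -1.10, adjusted p = 0.00824), when genes below the median level were left out (0.0437) and when genes at or below the background level were (0.0407). The third gene of the list with an unadjusted p under the same threshold, Spib, an ETS factor related to PU.1, was named after its values were seen (difference -0.31, unadjusted p = 0.0172, adjusted p = 0.0893). Spib passed as lower after quantile normalization (0.0488), median centring (0.0480) and cyclic loess (0.0379) and with array weights (0.0310). Spi1, which encodes PU.1, was not analysed here.

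Among inhibitors and corepressors 3 of 11 fell and 0 rose. Tnfaip3, the ubiquitin-editing enzyme A20 that dampens NF-kappaB and IRF signalling, fell 4.06-fold, with 6.34 ± 0.20 in AML against 8.36 ± 0.18 in control (adjusted p = 0.000538). Cyld, a deubiquitinase, fell by 1.05 (adjusted p = 0.00424) and Irf2bpl, a relative of the IRF2-binding corepressors, by 0.68 (adjusted p = 0.0108, and 0.0546 to 0.0569 without control array 2 or control array 3).

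Targets of the factors differed by list. Of 28 interferon-stimulated targets of ISGF3, IRF3 and IRF7, 5 fell and 0 rose, a share of 17.9%, with a median of -0.15. The chemokine gene Cxcl10 fell at least 2.35-fold (adjusted p = 0.00140), Oasl1, of the oligoadenylate synthetase family, by 1.06 (adjusted p = 0.00318), and Parp14 by 0.88 (adjusted p = 0.00311). Isg15, a ubiquitin-like modifier, passed as lower (difference -0.77, adjusted p = 0.00559) at levels not shown to be above background in either group. Without AML array 3 there were 3 rises in this list, Oas1a (difference +0.56, adjusted p = 0.00585), Oas2 (+0.47, 0.0211) and Sp100 (+0.36, 0.0282), chosen after their values were seen. With all arrays Oas1a stood at 7.45 ± 0.29 in AML and 7.06 ± 0.03 in control (adjusted p = 0.115).

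Of 21 interferon gamma targets of IRF1, 8 fell and 0 rose, and the falls numbered 5 when AML 1, AML 2, control 2 or control 3 was left out. Cxcl9, a chemokine that attracts T cells, fell by 1.95 to 6.17 ± 0.39 in AML, against 8.12 ± 0.21 in control (adjusted p = 0.00244). Cd274, the checkpoint ligand PD-L1, fell by 1.21 (adjusted p = 0.000872), the inflammatory caspase gene Casp4 by 1.21 (adjusted p = 0.00130) and the cytokine gene Il15 by 1.35 (adjusted p = 0.00235). The immunoproteasome and peptide transporter genes Psmb8, Psmb9, Psmb10, Tap1 and Tap2 of this list, grouped after their values were seen, had adjusted p-values of 0.0900 or more.

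Of 8 cytokine targets of IRF5, 6 fell, with a median of -1.31. The cytokine genes Il6 and Il1b had the largest differences, -3.44 and -3.27 (adjusted p = 0.000351 and 0.000965), followed by the chemokine genes Ccl3 at -2.62 (adjusted p = 0.00265) and Ccl4, which fell at least 2.44-fold (adjusted p = 0.00542). Many factors besides IRF5 act on these genes.

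All 8 measured myeloid targets of IRF8 fell, with a median of -1.25, and the falls numbered 4 when control 2 or control 3 was left out. Cybb, a subunit of the phagocyte oxidase, had 8.60 ± 0.20 in AML, against 10.46 ± 0.15 in control, and fell 3.64-fold (adjusted p = 0.000611). Id2, an inhibitor of E proteins that dendritic cells need, fell by 1.37 (adjusted p = 0.000381), Il18 at least 2.16-fold (adjusted p = 0.000845) and Aif1, a macrophage calcium-binding protein gene, by 0.88 (adjusted p = 0.00232). Most of these genes are also expressed by monocytes and macrophages, whose markers are given beside Irf8. The part of those cells in this count was not tested.

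Of 6 targets of IRF4 in B cells and plasma cells, 3 fell and 1 rose. Ikzf3, a zinc finger factor of B cells, fell by 1.65 (adjusted p = 0.00412) and Prdm1, the plasma cell factor BLIMP1, at least 1.54-fold (adjusted p = 0.00929, or 0.0503 without control array 2). Bcl6, the germinal centre repressor, fell at least 1.26-fold (adjusted p = 0.0188), and the call needed each of AML 1, AML 2, control 2 and control 3 (without them 0.0544 to 0.0646). Myc rose by 0.91 (adjusted p = 0.0454), with 8.14 ± 0.49 in AML against 7.23 ± 0.04 in control. The call of Myc ended under median centring (adjusted p = 0.0741) and without any single array but AML array 3 (0.0838 to 0.142). Falls in this list numbered 2 when AML 1, AML 2 or control 3 was left out and 1 when control 2 was.

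The IRF element was then looked for in the promoter windows of the listed genes. Over all 27025 genes with a window, 3.99% held it. Among the interferon-stimulated targets 11 of 21 genes with a window held it, 2 of the 3 that fell and 9 of the 18 that did not pass. It was present in 7 of 16 interferon gamma targets (3 of 7 that fell and 4 of 9 that did not pass), in 3 of 8 myeloid targets of IRF8, all of which fell, and in 0 of 6 cytokine targets of IRF5. These genes were listed as known targets, so the excess over all promoters is no finding of these arrays. Sites of genes that fell and of genes that did not pass are shown side by side, 30 bases each on the strand of the gene in GRCm38.p6, with the element or its reverse complement in capitals. Ctss, Ifit1 and Stat2 were chosen after their values were seen.
Cxcl10, fell, minus strand, chr5:92349083-92349112: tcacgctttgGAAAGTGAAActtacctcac
Cybb, fell, minus strand, chrX:9469334-9469363: tctgataataGAAAAGGAAAcctattgccc
Ctss, fell, plus strand, chr3:95526755-95526784: gtctttaaatGAAACCGAAAtgaaagttca
Ifit1, did not pass, plus strand, chr19:34640775-34640804: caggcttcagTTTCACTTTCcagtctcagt
Stat2, did not pass, plus strand, chr10:128270266-128270295: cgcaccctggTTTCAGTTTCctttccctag
Cxcl10, Cybb and Ctss carry the element shown in the direction of the gene, and Ifit1 and Stat2 on the other strand. Cybb holds it at 2 further places and Ifit1 at 1. Ctss, the lysosomal protease cathepsin S, fell by 1.21 (adjusted p = 0.0108, and 0.0511 to 0.0545 without control array 2 or control array 3). Ifit1, an antiviral gene, stood at 6.67 ± 0.20 in AML and 6.73 ± 0.35 in control (adjusted p = 0.825). The element was therefore found both in genes that fell and in genes that did not pass. Among the factors themselves only Irf2, which fell, held it.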

How the data were processed

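Per the labels' protocols, megakaryocytes were sorted into Trizol, and biotin-labelled cDNA from 250 ng of total RNA was hybridised to Affymetrix arrays. The authors deposited log2 values made with RMA, per the submitters' processing notes, with no version given. RMA brings the arrays to like distributions, which hides a shift common to most genes. The genome build of the array was not stated in those sources.

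Of 72688 rows, 30604 had 1 gene symbol, updated through RefSeq (GRCm38.p6). The row with the highest mean was kept per gene, leaving 30063 genes. These values were fitted without a filter by limma's lmFit and eBayes (AML minus control, two-sided, Benjamini-Hochberg over all genes). The fit and the motif search were tested on simulated data. The members and lists were chosen with earlier results of these data known. Named from each list were up to 4 genes past the threshold in each direction with the smallest p, or the 2 with the smallest p where none passed, for each called member its 3 most similar genes, and of each marker list the 2 with the highest mean, of which those needed are given. Other genes were chosen after their values were seen. Counts over lists carry no set test. Of 163 listed genes 22 were not analysed here. The alternatives tried were a block for replicate number, a variance trend, array weights, 3 renewed scalings, filters on dim genes, row choice, a 1.5-fold minimum and leaving out each array. The software was limma 3.58.1 in R 4.3.3 and, for motifs and plots, Python 3.11.15 with matplotlib 3.10.9.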

Additional observations from a re-analysis of the deposited data

How the results depend on the processing

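Irf2, Irf4 and Irf5 kept their direction and passed in each of the 17 alternatives, with differences from -1.01 to -0.83 for Irf2, -1.12 to -0.87 for Irf4 and -0.97 to -0.76 for Irf5. With each array left out, the differences ran from -0.76 to -0.57 for Irf8, -0.59 to -0.25 for Irf1, -0.028 to 0.10 for Irf3 and -0.063 to 0.045 for Irf9, the genes past the threshold numbered 967 to 3606 and the listed pathway genes 30 to 58. Irf7 did not pass in any alternative. The replicate number as a block left Irf8 at -0.66 (adjusted p = 0.0543), 34 pathway genes and 1067 genes. Deviations of same-numbered arrays from their group means correlated at -0.36, 0.142 and -0.291. With 3 arrays per group these values cannot decide whether the numbers pair arrays. With array weights Irf1 passed at -0.55, Irf3 turned to -0.019 and Irf9 to -0.052, and 7853 genes passed. Under median centring Irf3 turned to -0.070 and Irf9 to -0.12. With the fit and the adjustment made over all rows 1564 of the named genes passed, and with the 1.5-fold minimum 1565. The setting with all rows changes both the fit and the number of rows adjusted over, and leaving out an array leaves fewer arrays. Apart from the stricter minimum, what lowered the counts was not tested. The number of arrays and the background level limit what can be read for Irf4 and the interferon genes.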

Other observations

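Markers of further cell types that the gate could hold were read in the same way. Of the 12 neutrophil markers 9 fell, among them Ngp by 1.11 (adjusted p = 0.00318 by limma). Elane, Mpo and Csf3r did not pass, with differences of +0.33, +0.05 and -0.59 (adjusted p = 0.0889, 0.824 and 0.0781 by limma). Of 6 basophil and mast cell markers 4 fell, with sums from 1385 to 1647 in AML and from 3640 to 4922 in control, and the basophil protease gene Mcpt8 fell by 1.95 (adjusted p = 0.000368 by limma). Of 5 eosinophil markers 3 fell, with sums from 4886 to 6336 in AML and from 7669 to 8780 in control. Of 10 T and NK cell markers 1 fell, Gzmb, and 1 rose, with 7 of the 10 at or below the background level. Ly6c2, a surface protein gene of monocytes, stood at 12.27 ± 0.30 in AML and 11.95 ± 0.10 in control (adjusted p = 0.187), while Lyz2 of the same list fell 2.83-fold.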
